A study of Mus musculus with 8 samples.

Results

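Clusters of transcription start sites were described at 9 genes that are used as markers of the pluripotent state, namely Dppa2, Dppa3, Dppa4, Dppa5a, Zfp42, Utf1, Tdgf1, Lin28a and L1td1, out of 21951 protein-coding genes in GENCODE release M21 on mm10. The genes were chosen by name, with earlier results of these data known. The clusters taken were those on the strand of the gene whose dominant TSS, the base with the most 5′ ends in a cluster, lay between 500 bp upstream of the gene start and the gene end. By this rule the 9 genes held 78 clusters in each line, where the deposited sets held 32857 (E14), 33005 (A1) and 32870 (C7) clusters.

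CAGE-seq, which reads RNA from its capped 5′ end, was performed on nuclear RNA of wild-type E14 mouse ES cells (3 libraries) and of 2 lines that lack both Pwwp2a and Pwwp2b, DKO clone A1 (2 libraries) and DKO clone C7 (3 libraries). All lines were grown in serum with LIF, and each DKO line is a single clone, so that a clone and the loss of the genes cannot be told apart within 1 line. The authors merged the libraries of a line, so that each line is represented here by a single set of clusters without replicate error, and no test between lines was possible. The clusters carry positions and no counts, so that the depth and the signal behind a cluster are unknown.

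Pluripotent cells of the mouse epiblast and the ES cells derived from them express a set of genes that are shut down as the cells differentiate. Several of these were found as genes that follow Pou5f1 (Oct4) in the early embryo, which gave the Dppa genes (developmental pluripotency associated) their name, and they encode unrelated kinds of protein, among them DNA-binding, RNA-binding and cell surface proteins. A sharp promoter starts RNA at 1 or a few bases, whereas a broad promoter, often rich in CpG, spreads them over a longer stretch. At most promoters the first transcribed base is a purine that follows a pyrimidine (the YR step).

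The label of the cells was checked against clusters at marker genes. All 6 ES cell markers (Pou5f1, Sox2, Nanog, Esrrb, Klf4 and Fgf4) had a cluster in each line. Of the markers of other cells, 3 of 6 for primitive endoderm, 2 of 4 for 2-cell-like cells and 1 of 5 for early differentiation had 1 in each line, as had 3 of 5 for fibroblasts in E14 and 4 of 5 in both clones, where Col3a1 was added. Over all protein-coding genes, 11457 of 21951 had a cluster in E14. A cluster without an amount does not show how strongly a marker was expressed, so these counts do not settle the label. At the targeted genes, Pwwp2a had 2 clusters in each line and Pwwp2b had 0 in each line, and a capped start does not show whether the protein is made.

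The starts themselves are shown first, so that those at promoters and those inside exons can be compared base by base. In each line below, the capitals mark the base before the E14 dominant TSS and the dominant TSS itself, read 5′ to 3′ from GENCODE transcripts and RefSeq promoters. All 20 promoter clusters with known bases are given, numbered 5′ to 3′ in each gene, with the C7 start of Utf1 added. A pyrimidine preceded a purine at 10 of the 20, among them both Dppa3 starts, where the share over promoter clusters of protein-coding genes with known bases was 74.9%. The other 10 were the 5 clusters inside exon 3 of L1td1, cluster 3 of Dppa5a and of Tdgf1, cluster 1 of Zfp42, and the Utf1 and Lin28a starts.
Dppa2 cluster 3 (chr16:48310462-48310491, plus strand): attcattcagcggcTGcctttgtcttcttc
Dppa3 cluster 1 (chr6:122626410-122626434, plus strand): cccccccccCAttcacagactgact
Dppa3 cluster 2 (chr6:122626477-122626506, plus strand): atcttgttccgagcTAgcttttgaggcttc
Dppa4 cluster 2 (chr16:48283794-48283823, plus strand): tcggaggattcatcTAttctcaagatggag
Dppa5a cluster 2 (chr9:78368140-78368169, minus strand): ctggagctgtgggcCGtgcgtggtggataa
Dppa5a cluster 3 (chr9:78367766-78367795, minus strand): ctcaaaacaacaagATtcgggctaaatgga
Zfp42 cluster 1 (chr8:43306947-43306976, minus strand): ggtccaaggagctgAActcctagccgccta
Zfp42 cluster 2 (chr8:43306901-43306930, minus strand): ctgggtacgagtggCAgtttcttcttggga
Zfp42 cluster 3 (chr8:43306859-43306888, minus strand): aaccaaggaggaaaTAggtagagcgcatcg
Utf1 cluster 1 in E14 and A1 (chr7:139943807-139943836, plus strand): tctggaggagccctCCtctctggtgaggcc
Utf1 cluster 1 in C7 (chr7:139943886-139943915, plus strand): ccccggaggttgccCGctttttctccgccg
Tdgf1 cluster 1 (chr9:110946195-110946224, minus strand): ggagcttcctggccTAgtaatgggcgtggg
Tdgf1 cluster 2 (chr9:110946080-110946109, minus strand): tcctccgaagtcctCAatcacaaaccgttt
Tdgf1 cluster 3 (chr9:110945824-110945853, minus strand): gccgtcgaagatggGGtacttctcatccag
Lin28a cluster 1 (chr4:134018803-134018832, minus strand): tcttctccgaaccaCCcctttgcctccgga
L1td1 cluster 1 (chr4:98726784-98726813, plus strand): cccagccctgctttTGtcagcgtgtgtgac
L1td1 cluster 4 (chr4:98733198-98733227, plus strand): ccaccatgtcgggcGTgcagtccaaagcag
L1td1 cluster 5 (chr4:98733351-98733380, plus strand): tggaaatgcaagagGTgatgtttgcagaga
L1td1 cluster 6 (chr4:98733426-98733455, plus strand): gaacagcaccttggGTgaagcatttggaag
L1td1 cluster 7 (chr4:98733466-98733495, plus strand): gcagcaagaaggagATgcaatctcggaaag
L1td1 cluster 8 (chr4:98733631-98733660, plus strand): actagagagaggggGAgaagccctgcgtgg

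Starts inside exons are given as complete sets, namely every exonic cluster of Zfp42, every 3′ UTR cluster of Tdgf1 and every cluster in the last exon of L1td1. Both bases before the dominant TSS were G at 4 of the 5 Zfp42 starts, at 4 of the 9 Tdgf1 starts and, counted in these lines, at 2 of the 5 L1td1 starts.
Zfp42 cluster 9, 5′ UTR (chr8:43304505-43304534, minus strand): gtggcaaaagaagaTAgtcttcttctctca
Zfp42 cluster 20, 5′ UTR (chr8:43296464-43296493, minus strand): cattgttcaagaagGAagcagctaagacaa
Zfp42 cluster 21, coding sequence (chr8:43296013-43296042, minus strand): ccgctgagggttggGGcgagctcattactt
Zfp42 cluster 22, coding sequence (chr8:43295901-43295930, minus strand): agaagaagctgaggGAtaaaaccgccctga
Zfp42 cluster 23, coding sequence (chr8:43295689-43295718, minus strand): cgcatccacaccggGGagaggcgctttgtg
Tdgf1 cluster 10, 3′ UTR (chr9:110940626-110940655, minus strand): ttgatgctcacagtGAatccctaatgttac
Tdgf1 cluster 11, 3′ UTR (chr9:110940590-110940619, minus strand): aaacactaactaggCCttacctctgcacag
Tdgf1 cluster 12, 3′ UTR (chr9:110940546-110940575, minus strand): ggaaaactatggcgTGtgtgccaagcactg
Tdgf1 cluster 13, 3′ UTR (chr9:110940493-110940522, minus strand): ctaaaagctactctAAgaatgtgctgtctg
Tdgf1 cluster 14, 3′ UTR (chr9:110940406-110940435, minus strand): aaacagttctgaagGTtattattaaatccc
Tdgf1 cluster 15, 3′ UTR (chr9:110940330-110940359, minus strand): tatctttaagcaggGAggtggtggtgtcta
Tdgf1 cluster 16, 3′ UTR (chr9:110940143-110940172, minus strand): cccagccctcaggaGGtagggataggagga
Tdgf1 cluster 17, 3′ UTR (chr9:110940103-110940132, minus strand): tcaaggccagcctgGTctatgtagcgaacc
Tdgf1 cluster 18, 3′ UTR (chr9:110940007-110940036, minus strand): gagcagcagatgggGAagtgactaagactg
L1td1 cluster 17, coding sequence (chr4:98737075-98737104, plus strand): ttacctggtctgggACtctaagaaaaaaaa
L1td1 cluster 18, coding sequence (chr4:98737286-98737315, plus strand): atagaaaaggggagGTacaaggtgccgcaa
L1td1 cluster 19, coding sequence (chr4:98737401-98737430, plus strand): agatgcaaagggagGTcgacaaaatcaaaa
L1td1 cluster 20, coding sequence (chr4:98737498-98737527, plus strand): gattgaggccagggTGagcgaacaggaaga
L1td1 cluster 21, coding sequence (chr4:98737558-98737587, plus strand): gcagttagccagggAGatcgttgataaaga

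The 9 genes fell into 2 kinds by their clusters. Zfp42 had 23 clusters, L1td1 21 and Tdgf1 18 in each line, together 62 of the 78 (79.5%), and the other 6 genes had between 2 and 4. Dppa4 had 4 clusters, Dppa2 and Dppa5a 3, and Dppa3, Utf1 and Lin28a 2. Over the 11457 protein-coding genes with a cluster in E14, the median was 1.00 cluster and 76.7% had 2 or fewer. Counting genes with at least as many clusters, Zfp42 stood at place 38, L1td1 at 46 and Tdgf1 at 74 of these. With clusters within 100 bp merged, these genes had 15, 12 and 10 clusters in E14, and their places were not recalculated.

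Categories followed the dominant TSS. A cluster counted as promoter when a transcript of the same strand started no more than 500 bp away, and the rest were exonic or intronic. In E14, 26 of the 78 clusters were at promoters (33.3%, 95% Wilson interval 23.9% to 44.4%), 31 in exons (39.7%, 29.6% to 50.8%) and 21 in introns (26.9%, 18.3% to 37.7%). C7 had the same numbers. A1 had 32 exonic and 20 intronic clusters, because the dominant TSS of 1 Zfp42 cluster lay 19 bases farther upstream there, inside exon 2. Over all protein-coding genes, 73.5% of E14 clusters were at promoters, 15.9% in exons and 10.5% in introns, with a cluster in overlapping genes counted for each. Such intervals cover counting error only, and clusters of 1 gene are not independent. The promoter share was uneven over the genes. In E14 it was 4 of 23 clusters at Zfp42, 6 of 21 at L1td1 and 4 of 18 at Tdgf1. It was 2 of 4 at Dppa4, 1 of 2 at Utf1 and Lin28a, and every cluster at Dppa2, Dppa3 and Dppa5a.

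An exonic or intronic cluster was found at 6 of the 9 genes in each line, against 23.1% of protein-coding genes with a cluster in E14. Zfp42 had 19 of them, L1td1 15, Tdgf1 14, Dppa4 2, and Utf1 and Lin28a 1 each, whereas Dppa2, Dppa3 and Dppa5a had 0. Zfp42, L1td1 and Tdgf1 held 48 of the 52. At least 10 such clusters were present at 100 protein-coding genes (0.873%), and these 3 were among them.

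**Figure D1:**
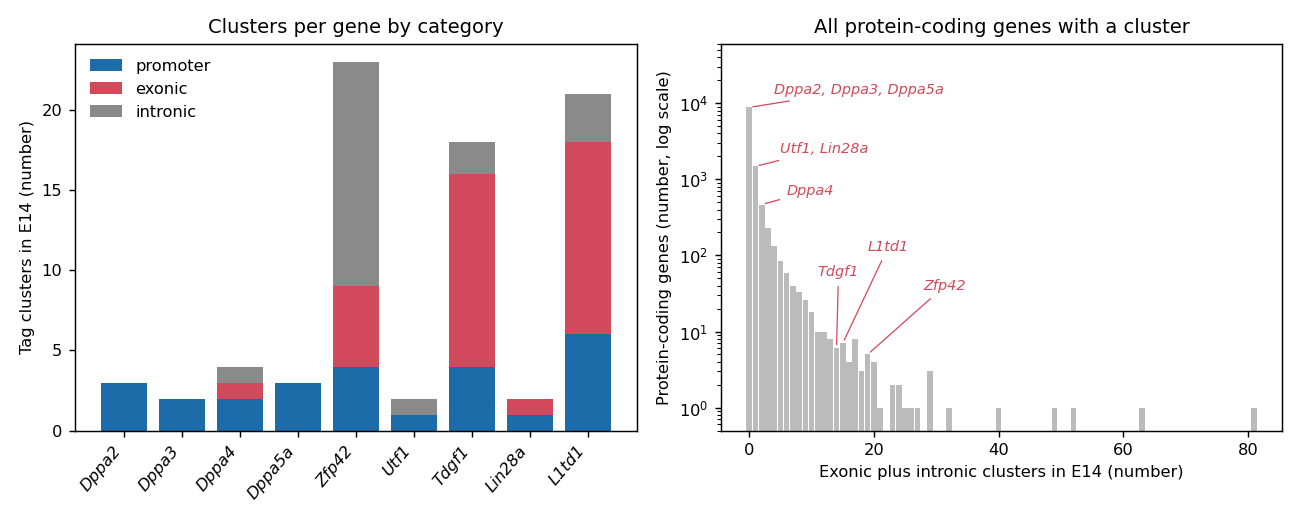
Left, tag clusters per gene in E14 (number, stacked by promoter, exonic and intronic category); right, the number of protein-coding genes (log scale) by exonic plus intronic clusters in E14, with the 9 genes marked at their bars. Zfp42, L1td1 and Tdgf1 have 19, 15 and 14 exonic plus intronic clusters, and the other 6 genes have 2 or fewer.

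Dppa2 and Dppa4 encode SAP domain proteins that bind DNA as a pair and keep developmental promoters open to activation. They lie next to each other on the plus strand of chromosome 16, Dppa4 from 48283733 to 48294237 and Dppa2 from 48303908 to 48319723. Dppa2 had 3 clusters in each of the lines, all counted as promoter. The first, from 48303849 to 48303894, had its dominant TSS 38 bp upstream of the annotated 5′ end in every line. Its interquantile width, the span that holds the signal between quantiles 0.1 and 0.9, was 41 bp in E14 and 28 bp in both A1 and C7. This was 0.683 times the E14 width in each clone.

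The other Dppa2 clusters lay more than 6 kb downstream, at or near an internal start. Within the cluster from 48310434 to 48310512, all lines had the dominant TSS at 48310477, which is the annotated first base of a shorter transcript and lies in exon 2 of 8 of the principal one. Its interquantile width was 11 bp in E14, 18 bp in A1 and 37 bp in C7. Both clones were thus wider than E14, by 1.64 and 3.36 times. The C7 value was the largest widening among the 78 clusters in that clone, and in A1 only an L1td1 cluster widened by more (1.67 times). The cluster from 48310170 to 48310176, 301 bp before that start in the first intron, was 7 bp wide in each line, and its dominant TSS was 6 bp farther upstream in A1.

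Dppa4 had a narrow and a broad cluster at its first exon. The narrow cluster, from 48283721 to 48283731, had its dominant TSS 4 bp upstream of the 5′ end of the principal transcript and was 8 bp wide in each line. The broad cluster, from 48283755 to 48283815, had its dominant TSS 74 bp downstream of that end, with widths of 42 bp in E14, 41 bp in A1 and 38 bp in C7. Inside the gene, a cluster of 3 bp lay in coding sequence of exon 2 of 7 at 48287964, and a cluster of 2 bp in intron 4 at 48289982. Both had the same width and the same dominant TSS in the 3 lines.

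Dppa3 (Stella), a maternal protein that protects DNA methylation in the zygote, lies on the plus strand of chromosome 6 from 122626410 to 122630272. Its clusters were both in the first exon. The sharp one had its dominant TSS 10 bp after the annotated 5′ end, after a run of C, and was 2 bp wide in E14 and C7 and 3 bp in A1. The broad one, from 122626464 to 122626515, had its dominant TSS 82 bp after that end and was 38, 40 and 39 bp wide in E14, A1 and C7. No dominant TSS of Dppa3 moved between lines. The sharp cluster began 1 bp later in C7, which made it 1 of 2 clusters of the 78 whose bounds were not the same in every line.

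Dppa5a (Esg1), which encodes a KH domain RNA-binding protein, lies on the minus strand of chromosome 9 from 78367052 to 78368177. It had 3 clusters, which together covered 422 bp. The cluster at the annotated start was 253 bp long, from 78367988 to 78368240, but its interquantile width was 8 bp in each line around a dominant TSS 23 bp after the 5′ end. A further cluster, from 78367742 to 78367868, lay in coding sequence of exon 2 of 3, 397 bp from the start, and was counted as promoter by that distance. It was the widest cluster of the 9 genes in E14, with an interquantile width of 120 bp, and measured 112 bp in A1 and 106 bp in C7. The third, from 78368287 to 78368328, lay upstream of the gene and was 42 bp wide in each line. Its dominant TSS lay 113 bp upstream of the 5′ end in E14, and was 25 bp farther upstream in A1 and 20 bp in C7.

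Near copies of these genes can bear on the counts, since reads were kept only where they aligned to 1 place. The pseudogenes Dppa5b, Dppa5c, Dppa3-ps, Tdgf1-ps1 and Tdgf1-ps2 had 0 clusters in each line, and Zfp42-ps1 had 1 in each line. Whether the pseudogenes hold stretches identical to the genes, and what share of reads was dropped, was not tested.

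Zfp42 (Rex1), a zinc finger protein used as a marker of undifferentiated ES cells, lies on the minus strand of chromosome 8 from 43295063 to 43306980. Its RefSeq promoter, 300 bases that end 1 base past the dominant TSS of the most upstream cluster, is printed for its motifs. The capitals mark an octamer site (ATGCAAAT on the other strand), 2 GC boxes (GGGCGG on the other strand) and a CCAAT box on the other strand.
Zfp42 promoter (GRCm38.p6, chr8:43306960-43307259, minus strand): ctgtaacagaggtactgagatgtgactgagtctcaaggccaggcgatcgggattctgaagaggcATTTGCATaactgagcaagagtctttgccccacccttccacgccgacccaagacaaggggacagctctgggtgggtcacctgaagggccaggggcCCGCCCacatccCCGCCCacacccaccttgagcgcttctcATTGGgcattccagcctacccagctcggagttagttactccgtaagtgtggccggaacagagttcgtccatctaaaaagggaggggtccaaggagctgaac

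The letters ATGCAAAT, the site bound by POU factors, occurred on either strand in 1.74% of the 32851 RefSeq promoters. GGGCGG occurred in 35.7%, CCAAT in 37.4% and TATAAA in 13.6%. Of the 9 genes, 5 had an entry (Zfp42, Utf1, Tdgf1, Lin28a and L1td1). ATGCAAAT and CCAAT were each found in 1 of the 5 (Zfp42), GGGCGG in 4 (all but L1td1) and TATAAA in 0. Such matches are descriptions of letters in these windows.

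Zfp42 had 4 promoter clusters within 334 bp. The widest, from 43306957 to 43307067, had an interquantile width of 71 bp and its dominant TSS at 43306961, 25 bp upstream of the 5′ end of the principal transcript and 19 bases into the first exon of another transcript, in every line. The cluster nearest to that end, from 43306895 to 43306920, was 5 bp wide in E14, 4 bp in A1 and 5 bp in C7, with its dominant TSS 21 bp after the end. The next was 35 bp wide in E14 and 32 bp in both clones. The last, of 2 bp, lay in the first intron, 201 bp from the start.

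Most of the Zfp42 clusters were intronic. All 4 introns of the principal transcript held some, with 4 in intron 1, 3 in intron 2, 2 in intron 3 and 5 in intron 4. These 14 clusters covered 227 bp over 6475 bp, with interquantile widths of 2 to 37 bp in E14. This came to 1.39 intronic clusters per kb of intron, a density that 7 protein-coding genes reached, Zfp42 included, where the median over genes with an intronic cluster was 0.0282 per kb. Of the 5 exonic clusters, 1 lay in exon 2, and 4 lay in exon 5 of 5, the exon that carries the coding sequence, 3 of them in the coding part. The density was 2.66 exonic clusters per kb of exon.

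In C7, 3 Zfp42 clusters in intron 4 differed in width from E14 and A1. The cluster from 43300375 to 43300402 was 17 bp wide in E14 and A1 and 28 bp in C7. The cluster from 43299494 to 43299511 was 18 bp wide in E14 and A1 and 1 bp in C7, with the same dominant TSS in each. The third, from 43299431 to 43299440, was 10 bp wide in E14 and A1 and 9 bp in C7. In A1, 4 Zfp42 clusters had another dominant TSS than in E14, by 12 and 8 bp downstream and 19 and 5 bp upstream, while in C7 all 23 kept it.

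By the number of promoter, exonic and intronic clusters in the 3 lines (9 counts), the protein-coding genes most like Zfp42 were Tead1, Kat6b and Tenm4, with summed differences of 13, 14 and 15. In E14, Tead1 had 3 promoter, 6 exonic and 11 intronic clusters, Kat6b 3, 7 and 12, and Tenm4 7, 3 and 14.

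Utf1 encodes a chromatin-associated protein of ES cells and lies on the plus strand of chromosome 7 from 139943789 to 139945112. It had a single promoter cluster of 176 bp, from 139943759 to 139943934. Its interquantile width of 112 bp in E14 and A1 and 113 bp in C7 was the widest of the clusters taken as the start of a gene. The dominant TSS lay 33 bp after the annotated 5′ end in E14 and A1, and 112 bp after it in C7. This move of 79 bp was the largest at the 9 genes, while the bounds of the cluster stayed the same. The 150 bases before the annotated start held 3 of the 4 GC boxes of the Utf1 promoter, 2 of them overlapping, shown in capitals.
Utf1 upstream (GRCm38.p6, chr7:139943639-139943788, plus strand): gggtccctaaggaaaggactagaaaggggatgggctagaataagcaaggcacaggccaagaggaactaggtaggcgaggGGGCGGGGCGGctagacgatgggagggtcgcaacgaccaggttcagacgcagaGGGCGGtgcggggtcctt

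A second Utf1 cluster of 8 bp, from 139944523 to 139944530, had its dominant TSS at its first base, in the gene's only intron of 97 bp, and ran into exon 2, which starts at 139944527. Counted as intronic by that base, this single cluster gave the highest intronic density of all protein-coding genes, 10.3 per kb, and the value rests on the length of the intron.

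Tdgf1 (Cripto), a membrane-anchored coreceptor for Nodal, lies on the minus strand of chromosome 9 from 110939603 to 110946158. Its broad promoter cluster, from 110945996 to 110946158, had an interquantile width of 60 bp in E14 and A1 and 59 bp in C7. Its dominant TSS at 110946094 in every line was the annotated first base of another transcript, 64 bp after the 5′ end of the principal transcript. A cluster of 19 bp lay 51 bp upstream of that end, and clusters of 2 bp lay 320 and 1121 bp after it. The RefSeq promoter of Tdgf1 had 41.7% GC, below the median of 52.7% over all promoters. Those of Zfp42, L1td1, Utf1 and Lin28a had 57.7, 58.7, 62.0 and 63.3%.

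Exonic clusters were the most frequent kind at Tdgf1, with 12 in each line. Of these, 9 lay in the 3′ UTR, in exon 6 of 6, with 1 more in the coding part of that exon, 1 in coding sequence of exon 4 and 1 in an exon of another transcript. Together they covered 276 bp, with a median gap of 39.0 bp between neighbours. The density of 4.58 exonic clusters per kb of exon was reached by 7 protein-coding genes, Tdgf1 included, against a median of 0.287 over genes with an exonic cluster. By interquantile width the widest, from 110940003 to 110940087 in the 3′ UTR, measured 67 bp in each line. The broad promoter cluster measured 60 bp in E14 and A1 and 59 bp in C7, but its whole length was 163 bp, against 85 bp.

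Between lines, the Tdgf1 cluster from 110940804 to 110940815 had its dominant TSS 11 bp farther downstream in both clones, at 110940804, and kept its width of 12 bp. The intronic cluster from 110943625 to 110943627 shifted by 1 bp in both clones and was 2 bp wide in E14 and 3 bp in each clone. In C7, the 3′ UTR cluster from 110940499 to 110940521 was 21 bp wide against 8 bp in E14 and A1. The 3′ UTR cluster from 110940555 to 110940563 had a different dominant TSS in each line, 2 bp upstream of the E14 base in A1 and 5 bp downstream in C7. Moves of 1 bp downstream were found at the promoter cluster from 110945837 to 110945838 in C7 and at the 3′ UTR cluster from 110940390 to 110940442 in A1.

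Lin28a, an RNA-binding protein that blocks the maturation of let-7 microRNAs, lies on the minus strand of chromosome 4 from 134003330 to 134018841. Its start cluster, from 134018789 to 134018884, had its dominant TSS 24 bp after the annotated 5′ end in every line. The width was 43 bp in E14, 45 bp in A1 and 28 bp in C7, so that C7 lay below both others, at 0.651 times E14. The only other Lin28a cluster, of 2 bp, lay in the 3′ UTR in exon 4 of 4 at 134005433 and was the same in all lines. Lin28a has the most exon sequence of the 9 genes, 3996 bp. It had 0.250 exonic clusters per kb, where the median over protein-coding genes with an exonic cluster was 0.287.

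L1td1, an RNA-binding protein derived from the first open reading frame of a LINE-1 element, lies on the plus strand of chromosome 4 from 98726734 to 98738480. Its start cluster, from 98726706 to 98726885, was broad, with interquantile widths of 64 bp in E14, 71 bp in A1 and 66 bp in C7. The dominant TSS was 51 bp after the principal 5′ end in every line. The other 5 clusters counted as promoter lay more than 6 kb downstream, in coding sequence of exon 3 of 5, within 500 bp of the start of an internal transcript. The first of these, from 98733212 to 98733277, was 10 bp from that start and 65 bp wide in each line. At its dominant TSS, and at those of the other 4, the step was not pyrimidine-purine, and 3 of the 5 had G at both preceding bases.

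All 12 exonic clusters of L1td1 lay in coding sequence, 2 in exon 3, 4 in exon 4, 5 in exon 5 and 1 in a part of another transcript that the principal transcript splices out. They covered 219 bp, with a median gap of 94.0 bp, and came to 3.78 per kb of exon, a density that 12 protein-coding genes reached, L1td1 included. Another 3 lay in introns. The cluster from 98736825 to 98736851 was 27 bp wide in E14, 4 bp in A1 and 26 bp in C7, the largest narrowing in A1 among the 78. The cluster from 98733645 to 98733663 was 19 bp wide in E14 and A1 and 2 bp in C7. Each of these was narrow in 1 clone and not in the other.

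Dominant TSSs of L1td1 moved to the same new base in both clones at 2 clusters. The intronic cluster from 98728352 to 98728368 started 16 bp farther downstream in both, at its other edge, and the exonic cluster from 98736609 to 98736612 started 2 bp farther downstream in both. In A1 alone, the cluster from 98737406 to 98737416 started 10 bp farther upstream, that from 98737511 to 98737539 started 26 bp farther downstream, and that from 98733645 to 98733663 started 1 bp farther upstream. In C7 alone, the cluster from 98733212 to 98733277 started 1 bp farther upstream.

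**Figure D2:**
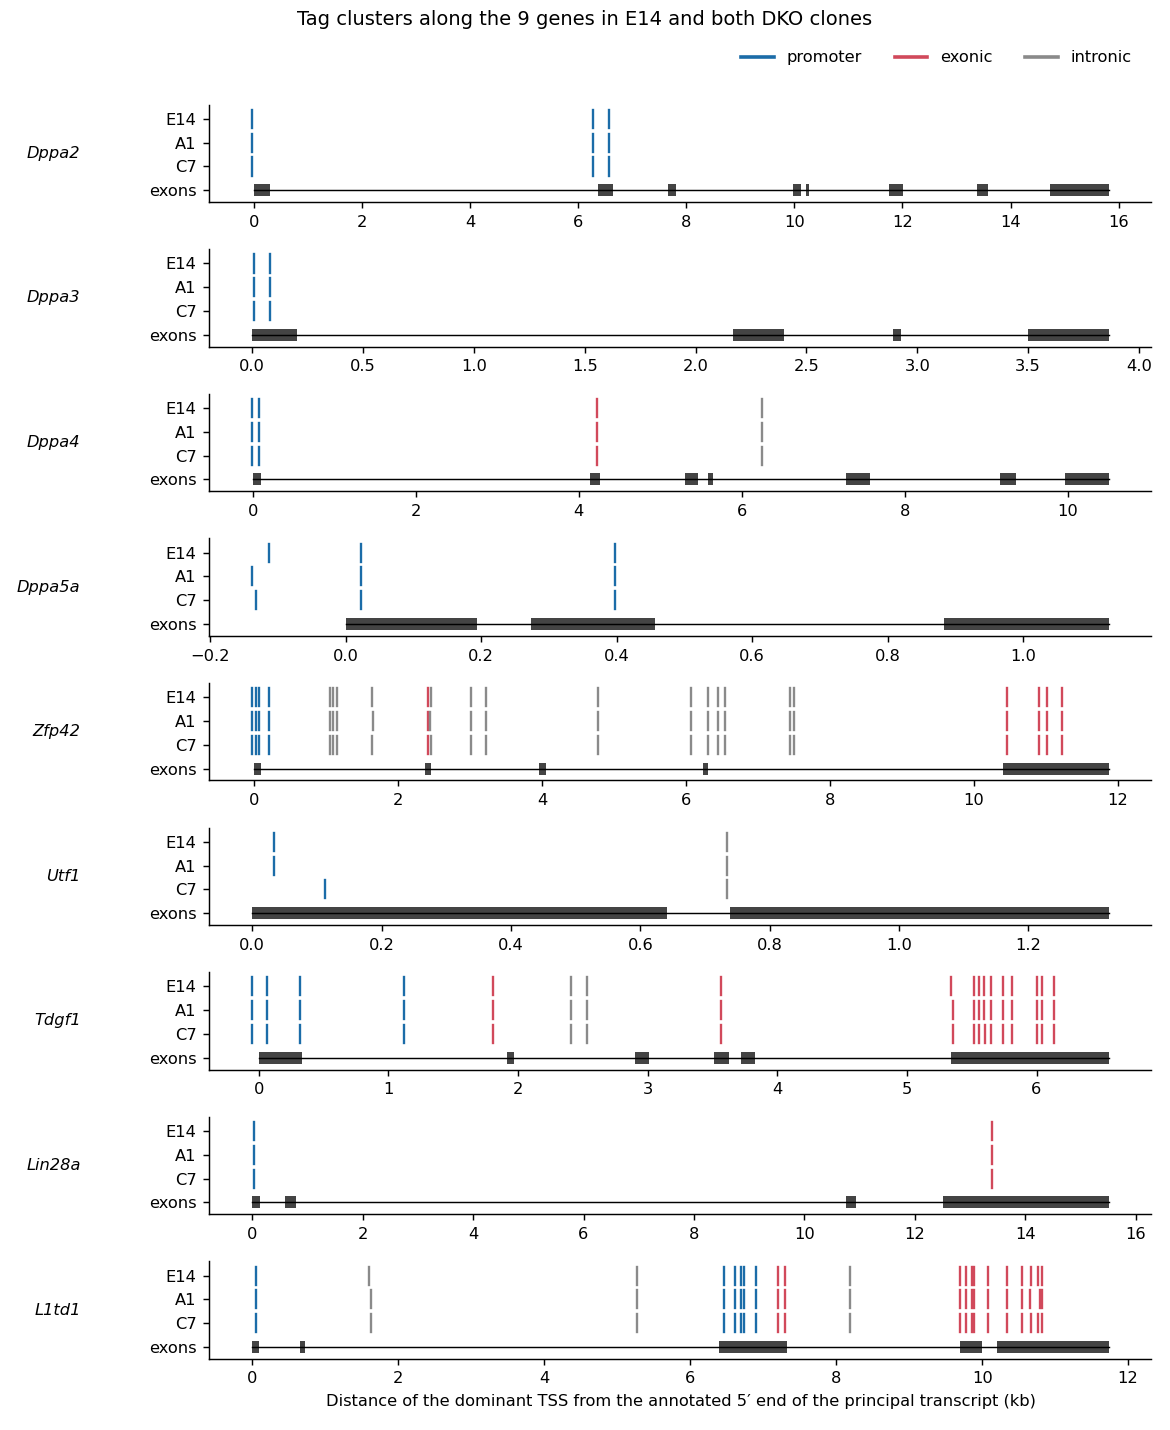
Dominant TSSs (vertical marks) of the 78 clusters along the 9 genes in E14, A1 and C7, in kb from the annotated 5′ end of the principal transcript, whose exons are boxes; colours give the category in E14. Marks stand at the same places in the 3 lines except for the moves described, and Zfp42, Tdgf1 and L1td1 have 23, 18 and 21 of them.

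Taking all 9 genes, each of the 78 E14 clusters overlapped a cluster of both clones (100%, 95% Wilson interval 95.3% to 100%), and the clones had no cluster that E14 lacked. Over protein-coding genes this share was 99.1%, so the full sharing is close to the background. Of the 9 genes, 0 had more and 0 had fewer clusters in both clones, as against 0.655% and 0.410% of protein-coding genes. The start and end of the cluster were the same in all lines at 76 of the 78, where the background was 98.7%. The paper states that clusters were aggregated into consensus peaks across replicates, and whether bounds were set jointly over the lines is not given. Joint bounds would make overlap likely in advance, so the sharing does not show that each start was kept in the clones.

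The dominant TSS differed from E14 at 15 of the 78 clusters in A1 (19.2%, 95% Wilson interval 12% to 29.3%) and at 9 in C7 (11.5%, 6.19% to 20.5%). The background was 23.1% in A1 and 20.2% in C7. Both clones moved at 6 clusters, and at 4 of these to the same base (5.13%, 2.01% to 12.5%, against 8.05%). Those 4 were at Tdgf1 and L1td1, in exons and introns. At promoter clusters, 3 moved in A1 and 4 in C7 of 26, against 3940 (21.6%) and 3490 of 18248 promoter clusters of protein-coding genes, and the Dppa5a cluster upstream of the gene was the 1 that moved in both. At 60 of the 78 clusters all 3 lines had the same dominant TSS (67.4% over protein-coding genes), which included the start clusters of all genes except Utf1. Moves ranged from 1 to 79 bp with a median of 7.00 bp.

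**Figure D3:**
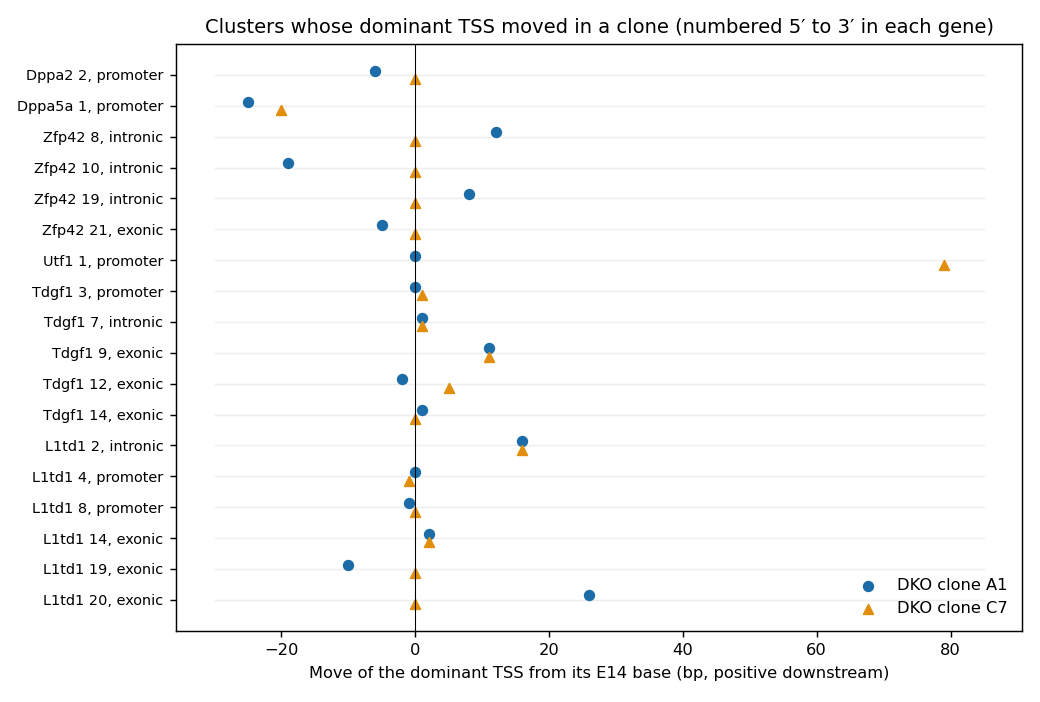
Move of the dominant TSS from its E14 base (bp, positive downstream) in DKO clone A1 (circles) and C7 (triangles), at the 18 clusters where at least 1 clone differed. The move of 79 bp at Utf1 in C7 is the largest, and circles and triangles coincide at 4 clusters of Tdgf1 and L1td1.

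Interquantile widths were unchanged in all 3 lines at 50 of the 78 clusters, against 56.6% over protein-coding genes. In A1, 12 were wider and 7 narrower than in E14, where the background was 22.1% wider and 11.3% narrower. In C7, 11 were wider and 11 narrower, with a background of 20.2% and 11.2%. A width at least 1.5 times larger or smaller was found at 6 clusters in A1 (7.69%, background 7.72%) and at 7 in C7 (8.97%, background 6.87%), and at 2 of the 78 in both clones (background 3.55%), the internal start of Dppa2 and a 2 bp cluster of Tdgf1.

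**Figure D4:**
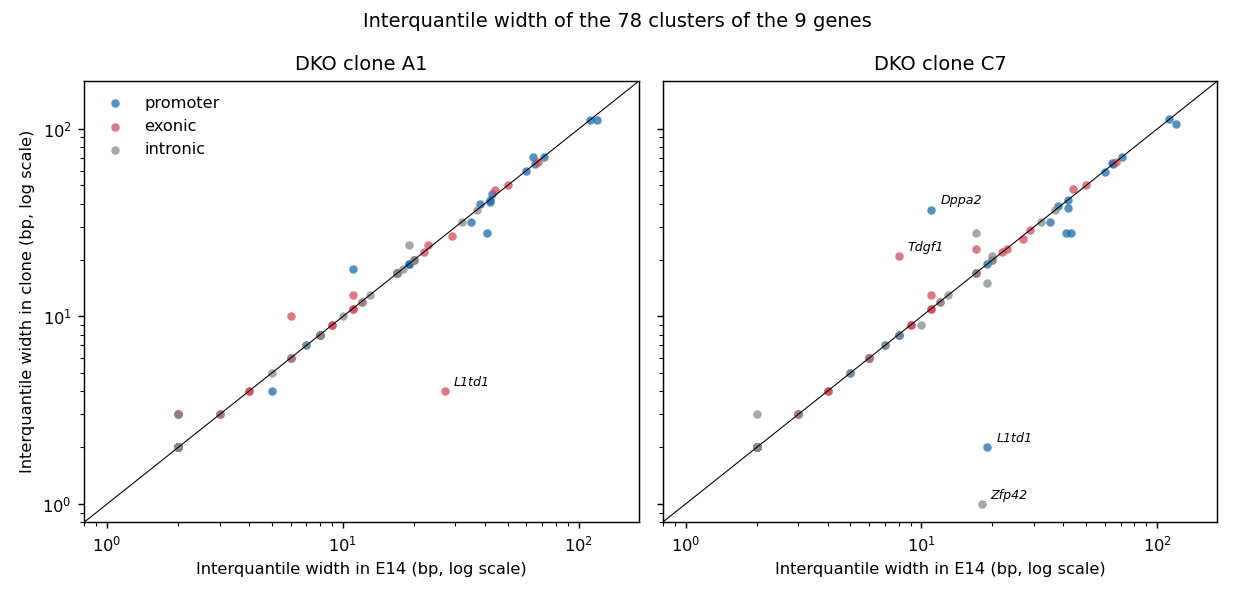
Interquantile width (bp, log scale) of the 78 clusters in DKO clone A1 (left) and C7 (right) against E14, coloured by category; the diagonal marks equal widths and genes are named where the width differs by at least 2 times. Most points lie on the diagonal, and the named clusters are 1 of L1td1 in A1 and 1 each of Dppa2, Tdgf1, L1td1 and Zfp42 in C7.

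Widths differed between categories. In E14, promoter clusters of the 9 genes had a median interquantile width of 19.5 bp (range 2 to 120), exonic ones 8 bp (2 to 67) and intronic ones 10.0 bp (2 to 37). Over protein-coding genes the medians were 21 bp (quartiles 7.00 and 37.0), 3.00 bp (2.00 and 15) and 3.00 bp (2.00 and 11). The start cluster of a gene, the one nearest to the 5′ end of its principal transcript, had a median width of 19 bp over the 9 genes, with 2 bp at Dppa3, 5 bp at Zfp42, 8 bp at Dppa4 and Dppa5a, 19 bp at Tdgf1, 41 bp at Dppa2, 43 bp at Lin28a, 64 bp at L1td1 and 112 bp at Utf1. The median over 11168 protein-coding genes was 28 bp (quartiles 13.0 and 42.0). At Dppa3, Dppa4, Dppa5a and Zfp42, whose start clusters were 8 bp wide or less, another promoter cluster measured between 38 and 120 bp.

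The exonic clusters of the 9 genes were placed by region. In E14, 18 of 31 lay in coding sequence, 10 in a 3′ UTR and 3 in a 5′ UTR. Over 4077 exonic clusters of protein-coding genes, 67.8% lay in coding sequence, 24.7% in a 3′ UTR and 2.28% in a 5′ UTR. Of the 31, 2 lay within the first 10 bases of an exon, at Tdgf1 and L1td1. The share over protein-coding genes was 6.03%.

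The bases at exonic starts were set beside those at promoters. A YR step was present at 4 of 31 exonic dominant TSSs (12.9%, 95% Wilson interval 5.13% to 28.9%), 2 at Tdgf1 and 1 each at Zfp42 and L1td1. Over protein-coding genes it was present at 9.20% of exonic, 74.9% of promoter and 83.0% of start clusters with known bases. At the 9 genes, 10 of 20 promoter clusters and 5 of 7 start clusters with known bases had it, and the bases of the other 6 promoter clusters and 2 start clusters were not known. G stood directly before the dominant TSS at 21 of the 31, against 73.6% of exonic clusters of protein-coding genes. Both preceding bases were G at 18 of 30 (60%, 42.3% to 75.4%), 7 of 11 at L1td1, 6 of 12 at Tdgf1 and 4 of 5 at Zfp42, and 3 G preceded 9 of the 30 (30.0%). Over protein-coding genes a pair of G preceded 65.0% of exonic starts but 10.9% of promoter and 4.73% of start clusters, and 3 G preceded 40.8%, 6.34% and 2.61%. In coding sequence 13 of 17 exonic starts of the 9 genes had the pair, and in the Tdgf1 3′ UTR 4 of 9. The share with the pair over exonic clusters of protein-coding genes lay within the interval of the 9 genes.

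**Figure D5:**
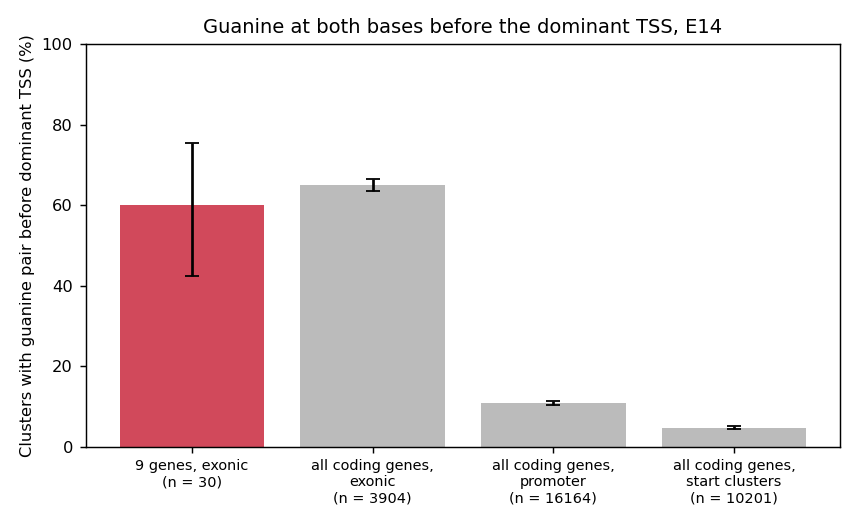
Share of E14 clusters (%) with guanine at both bases before the dominant TSS, with 95% Wilson intervals, at exonic clusters of the 9 genes and at exonic, promoter and start clusters of all protein-coding genes. The exonic bars stand at 60% and 65.0%, above 10.9% at promoter and 4.73% at start clusters.

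Of 28 other genes linked to pluripotency, among them Pou5f1, Nanog, Sox2, Klf4, Esrrb and Sall4, 27 had a cluster and 20 an exonic or intronic cluster in each line. Over protein-coding genes, 11457 of 21951 had a cluster in E14, and 23.1% of these had an exonic or intronic one. Having an exonic or intronic cluster was thus not particular to the 9 genes. In E14 the highest number of them among the 28 genes was 13, at Klf5, where Zfp42 had 19, L1td1 15 and Tdgf1 14. The 28 genes held 176 clusters in E14, 175 in A1 and 177 in C7, of which 76, 75 and 75 were exonic or intronic. The median of those with a cluster was 6, and that of the 9 genes was 3.00. The 9 genes had 52 exonic or intronic clusters in each line.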

How the data were processed

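Nuclear RNA of 8 libraries (3 E14, 2 DKO clone A1 and 3 DKO clone C7) was profiled by CAGE-seq. The authors aligned reads to mm10, kept unique alignments, merged libraries by line, normalized 5′ end counts by a power law and clustered them with CAGEr. The submitters' processing notes name STAR 2.4.2a, SAMtools 1.3 and bedtools 2.17.0. The deposited values are positions of clusters, of dominant TSSs and of interquantile blocks, and a score that is 0 throughout and was not used.

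Positions were compared in Python 3.11.15 with SciPy 1.17.1, and plots were drawn with Matplotlib 3.10.9. Dominant TSSs were taken 1 base after the deposited 0-based position, where 83.0% of start clusters had a YR step, against 1.94% without that base. Categories used GENCODE M21, 500 bp around transcript starts for promoters, which took precedence over exons and those over introns. Clusters were shared if they overlapped by 1 bp on the same strand. The interquantile region was the widest block. Category and overlap functions, tested on simulated clusters, recovered 1000 of 1000 and 500 of 500. Intervals are Wilson 95%. The principal transcript was that with the best APPRIS rank, then the longest. All 9 genes are named, together with the 3 genes closest to Zfp42 in cluster counts. The genes and lists were chosen with earlier results of these data known. Exons, promoters and sequences came from GENCODE and RefSeq (GRCm38). Alternatives were other gene windows, promoter windows, strand, overlap, merging and width rules.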

Additional observations from a re-analysis of the deposited data

Results flagged for a closer look

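Clusters on the strand opposite to the gene were not used in the comparisons. Inside L1td1, 11 such clusters were present in E14, and the same number in A1 and in C7. All 11 had their dominant TSS within exons of L1td1, and their interquantile widths ranged from 3 to 35 bp in E14. As many were found in 9 protein-coding genes, L1td1 included. Inside Tdgf1, 3 opposite-strand clusters were present in each line, all within exons and 1 to 7 bp wide, a number reached by 265 genes. The other 7 genes had 0 in each line. Of 11457 protein-coding genes with a cluster in E14, 16.2% had an opposite-strand cluster between their ends. Whether these clusters arise from antisense RNA was not tested.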

How the results depend on the processing

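No paired analysis was possible because the libraries of a line were merged by the authors, and no library could be left out for the same reason. Values are listed by line (E14, then A1, then C7), and the cause of a shift was not tested unless the rule itself gives it. Merging clusters within 100 bp gave 50, 50 and 50 clusters at the 9 genes. A promoter window of 100 bp gave 16, 16 and 15 promoter clusters. Requiring the same dominant TSS lowered the share of clusters found in all lines to 76.9, 76.9 and 76.9%, and a width of at least 3 bp gave 92.1% in A1. Median start cluster widths were 46.0, 46.0 and 46.0 bp for whole clusters and 60, 60 and 59.0 bp for the widest promoter cluster of a gene, whose dominant TSS lay 64.0, 51.0 and 74.0 bp from the 5′ end. Of the results over the 9 genes, the other 56 recalculated values stayed within 1.5 times of the main value, or within its interval. Of the values for single genes, 437 did so and 103 did not. With strand ignored, L1td1 had 32 clusters in E14. With a promoter window of 100 bp, Dppa2 and Dppa5a each had 1 exonic or intronic cluster in E14, and the Utf1 start, which moved in C7, was no longer a promoter cluster there. With 1000 bp, Utf1 had 0 exonic or intronic clusters, as had Lin28a in E14 when a width of at least 3 bp was required.

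The clusters show presence and shape and no amount, so a change in signal at these starts cannot be seen here. Without counts, the depth behind a width or a moved dominant TSS is unknown, and with 1 set per line the spread between libraries is too.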
